A study of Mus musculus with 5 samples.

Results

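The cell cycle and proliferation genes described here are 48 genes of S phase, mitosis and cell cycle control, taken by gene symbol from the RNAseq count tables of mouse kidney. All 48 were among the 24421 gene symbols counted, and 47 of them had enough counts to be tested, out of 13874 genes tested in all. RNAseq was done by the authors on flash-frozen cortical kidney tissue of 3 *Fnip1* null mice (genotype *Fnip1*-/-, mice 8637, 9121 and 9210) and 2 wildtype mice (genotype *Fnip1*+/+, mice 9055 and 9056), with 1 library per mouse. The controls are wildtype by the labels, but the study's text calls them *Fnip1*+/- in several places, its RNAseq results among them. This could not be settled here, so that wildtype below means the genotype as labelled. All 5 mice had the C57BL6J background, and no treatment other than the freezing of the tissue is described. The labels give neither age nor sex for a mouse, and the study gives only a range of ages for its RNAseq mice. The null allele came from chemical (ENU) mutagenesis and is carried in the germline, so that every kidney cell type carries it. *Fnip1* encodes a protein that binds folliculin and AMP kinase, a sensor of cellular energy, and the comparison asks how its loss alters gene expression in the kidney. The mRNA of *Fnip1* itself read 21.0, 16.0 and 16.9 normalized counts per 1000000 (CPM) in null mice 8637, 9121 and 9210, and 51.7 and 48.6 CPM in wildtype mice 9055 and 9056, a log2 fold change of -1.48 (SE 0.14, adjusted p = 0.0313).

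A cell that enters the cycle first makes D type cyclins, which with their kinase partners release E2F transcription factors from the retinoblastoma protein. E2F factors then switch on the genes of origin licensing and DNA synthesis, and a later wave of transcription, with FoxM1 and B-Myb, supplies the cyclins, kinases and motor proteins of mitosis. CDK inhibitors such as p21, p27 and p57 oppose these kinases. Most cells of the adult kidney are outside the cycle, and tubule cells re-enter it during repair. In bulk tissue a higher value of such a gene can come from more cells that express it or from more RNA per cell, and the 2 cannot be told apart here.

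Depth was similar in the 5 libraries, at 15799114 to 19132145 counts in genes, so that 3 counts in a mouse correspond to 0.158 to 0.186 CPM. The libraries of mice 8637, 9121, 9210, 9055 and 9056 are given in this order throughout, the 3 null mice first. Mouse 9121 stood apart from the other 4. Its *Xist* level, the RNA that silences an X chromosome in female cells, was 314 CPM against 0.171 to 1.41 CPM elsewhere, and the Y-linked *Ddx3y*, *Kdm5d* and *Uty* had no count in it but 17.3 to 52.1 CPM in each of the others. Most of the named genes and the group counts are therefore also given without mouse 9121, and the 4 mice that remain all express the Y-linked genes. Markers of the kidney cortex were present in all libraries, with 6 proximal tubule markers summing to 7094 to 10063 CPM in null and 10584 to 11796 CPM in wildtype mice. That sum is mostly *Slc34a1*, and its genes did not move together. *Slc34a1*, *Lrp2* and *Slc22a6* were lower in every null mouse, *Slc5a2* and *Slc5a12* were higher in every null mouse, and *Cubn* overlapped. Among the marker sums that were higher in all null mice than in both wildtype mice were those of podocytes (690.1 to 808 against 387 to 389 CPM), the collecting duct (687 to 979 against 521 to 541 CPM) and intercalated cells (395 to 615 against 268 to 296 CPM), and those of the distal convoluted tubule (1487 to 1704 against 1067 to 1252 CPM) and endothelium (251 to 337 against 140.2 to 237 CPM) were also above in every null mouse. The 6 markers of injured tubules, whose sum is mostly *Spp1*, came to 1931 to 2805 CPM in null and 809.6 to 822 CPM in wildtype mice. Leukocyte markers, 11 of 12 found in the files, summed to 324, 773 and 420.1 CPM in null and 329.7 and 229 CPM in wildtype mice. That sum is mostly *Cd74* and overlaps between genotypes, but 10 of the 11 markers had a positive log2 fold change (median 1.24), 8 were above both wildtype mice in every null mouse and none passed the FDR. Of 5 neutrophil markers found, *S100a8* and *S100a9* were higher in every null mouse (summed over the list, 4.48 to 6.54 against 0.435 to 0.457 CPM), *S100a9* past the FDR (adjusted p = 0.0313), while *Camp* and *Elane* had no count in any mouse. Of 6 erythroid markers *Hba-a1* and *Hbb-bt* had no count in any mouse, and *Alas2* was higher in every null mouse. The part of these cell types in the results on cell cycle genes was not tested.

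Many promoters of cell cycle genes are known for a few short sequence motifs, and the stretches upstream of 4 genes are shown because they hold the motifs of the S phase and mitosis groups used below. The sequences are from RefSeq on GRCm38.p6, where 37 of the 48 genes had a window from 250 bases before to 50 bases after a start site, 41 windows in all. The motifs searched, on both strands, were CCAAT, which NF-Y binds, the cell cycle genes homology region (CHR, TTTGAA), which the DREAM and B-Myb complexes bind, and the E2F site in the spellings TTTCCCGC, TTTCGCGC, TTTGCCGC and TTTGGCGC. Capitals mark every match, and each line gives the 150 bases that end just before the start site, 5′ to 3′ along the gene.
*Cdk1* (chr10:69352913-69353062, minus strand): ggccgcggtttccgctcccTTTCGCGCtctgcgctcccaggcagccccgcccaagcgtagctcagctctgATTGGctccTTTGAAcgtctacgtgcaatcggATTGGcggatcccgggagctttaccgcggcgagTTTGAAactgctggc
*Top2a* (chr11:99024190-99024339, minus strand): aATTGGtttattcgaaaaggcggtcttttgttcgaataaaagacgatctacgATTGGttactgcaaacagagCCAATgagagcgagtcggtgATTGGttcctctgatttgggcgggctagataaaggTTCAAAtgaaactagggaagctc
*Prc1* (chr7:80294326-80294475, plus strand): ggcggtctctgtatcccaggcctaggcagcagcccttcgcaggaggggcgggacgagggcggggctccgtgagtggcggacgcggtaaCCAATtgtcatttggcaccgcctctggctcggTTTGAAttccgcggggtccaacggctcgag
*Mcm6* (chr1:128359706-128359855, minus strand): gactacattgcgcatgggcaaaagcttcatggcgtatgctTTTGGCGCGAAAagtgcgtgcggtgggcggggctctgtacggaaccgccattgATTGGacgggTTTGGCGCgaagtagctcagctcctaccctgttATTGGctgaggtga
In *Cdk1*, *Top2a* and *Prc1* the CHR and CCAAT motifs lie within the same stretch, and the *Cdk1* line also holds an E2F match. The *Mcm6* line holds no CHR match but 3 E2F matches, the first 2 of which overlap in the run of 12 capitals. Over the windows of mitosis genes, 72.7% (16 of 22) held both CHR and CCAAT, against 6.95% of all 32851 windows, and 4.55% held an E2F match. Over those of S phase genes, 50% (6 of 12) held an E2F match, against 2.26% of all windows, and 8.33% held CHR. The windows of *Birc5*, *Ccne1*, *Cdkn1a*, *E2f1*, *Melk*, *Nusap1* and *Tyms* held none of the 3 motifs as spelled here, and other spellings were not searched. The *E2f1* window (chr2:154569377-154569676, minus strand) lies wholly inside the annotated gene, whose 5′ end is 154569892, so that the bases upstream of that end were not searched. The windows of *Cdc6*, *Cdca3*, *Cdca8* and *Mcm7*, counted in the shares above, also lie wholly inside their annotated genes. So do the downstream windows of *Ccnd3* and *Cdkn1a*. Overlapping windows of *Prc1* were both counted, so that the 22 windows of mitosis genes belong to 21 genes. A match is a description of letters and says nothing of what bound there in these kidneys.

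Between genotypes, 46 of the 47 tested genes had a higher fitted level in *Fnip1* null than in wildtype kidney. The same held for 50.5% of all genes tested, and few of the 46 differences passed the test. The 48 genes were chosen with earlier results of these data known, so that the count is a description and not a test. Of 129 other cell cycle genes tested, 87 had a higher fitted level, with a median log2 fold change of 0.22. The median log2 fold change over the 47 genes was 0.76, against 0.0031 over all 13874 genes tested, and single genes ran from -0.09 (*Nusap1*) to 1.55 (*Melk*). With scaling by library size alone, which moved the median of all genes to 0.17, *Nusap1* read 0.058 and the other 46 stayed positive. At a false discovery rate (FDR) of 5% in edgeR's quasi-likelihood test, 2 genes passed, *Ccnd1* and *Cdkn1c*, both higher in null kidney. Over all genes tested, 0.555% were higher at that FDR. With the study's further limit of a 2-fold change none of the 47 was called, against 0.533% of all genes in either direction, and 5 were called by edgeR's exact test or by DESeq2, which called 4.07% and 3.51% of all genes. At an unadjusted p below 0.05, 20 of the 47 were higher and none lower, where 13.9% of all genes were higher. In 22 of the 47 all 3 null mice lay above both wildtype mice, where the same held for 22.9% of all genes, in none did all 3 lie below, and in 25 the groups overlapped.

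**Figure D1:**
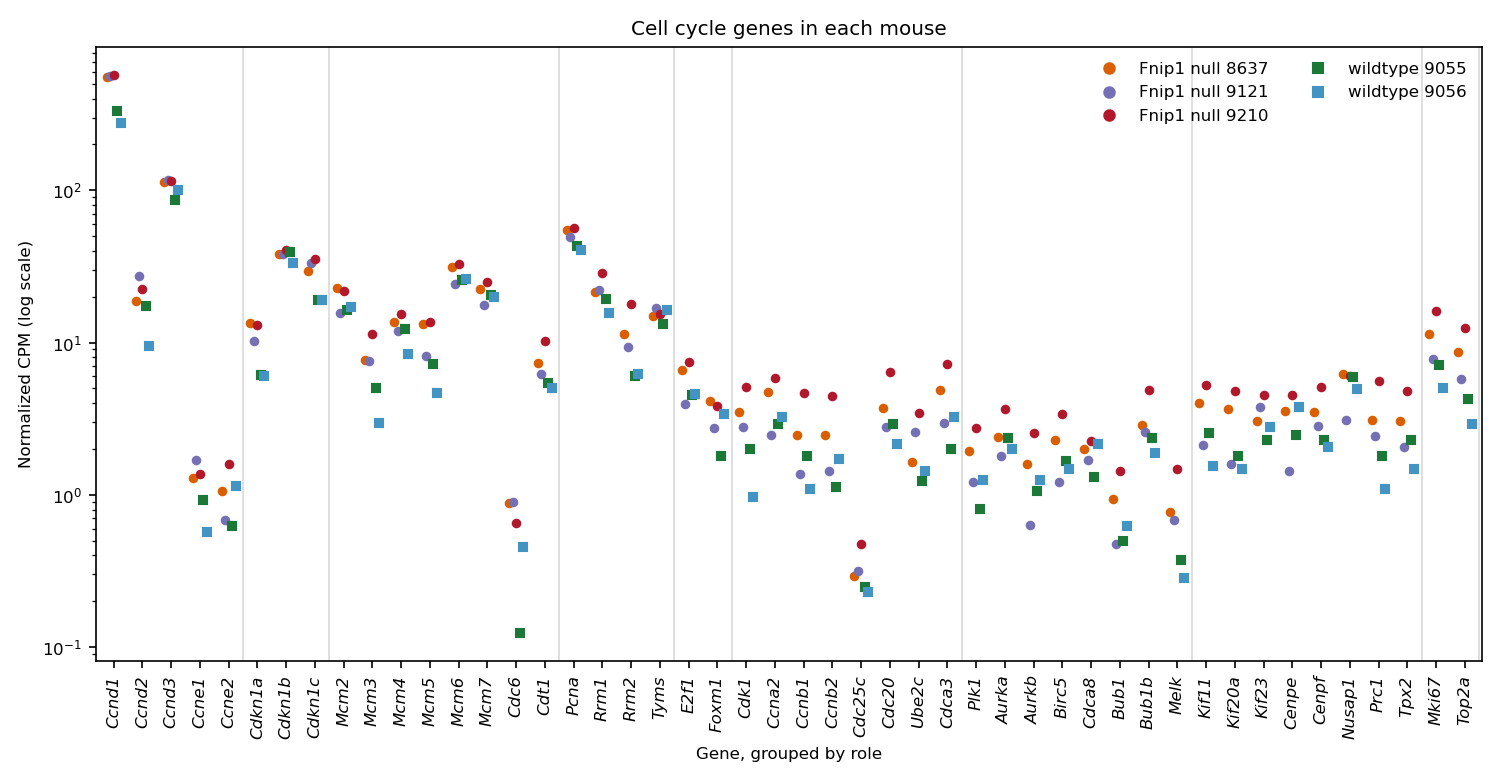
Normalized CPM (log axis) of the 48 genes in each mouse, grouped by role, with circles for the 3 *Fnip1* null and squares for the 2 wildtype mice. *Ccnd1* sits highest, at 276 to 572 CPM, and the genes of mitosis mostly lie between 1 and 10 CPM, where the null mouse 9210 is usually the highest point.

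The cyclins of the start of the cycle were led by *Ccnd1*, cyclin D1, which couples growth signals to the G1 kinases (ENSMUSG00000070348, chr7:144929931-144939925 on the minus strand of GRCm38, GENCODE M21). It read 555, 566 and 572 CPM in the null mice and 329.5 and 276 CPM in the wildtype mice. The null values lay close together and well above both wildtype values, and the mean rose from 303 ± 38.0 (SD, n = 2) to 564 ± 8.63 CPM (SD, n = 3). The log2 fold change was 0.90 (SE 0.13, adjusted p = 0.0479), or 1.86-fold. Per kilobase of exon *Ccnd1* had the highest level of the 48 genes in both genotypes, 120 CPM in null and 64.3 CPM in wildtype, followed by *Pcna* at 22.3 and 17.4 CPM. In the annotation 23.4% of its exon bases overlap a gene on the other strand (*LTO1*, listed in RefSeq also as *Oraov1*), which read 21.5 ± 0.50 CPM in null and 19.3 ± 2.51 CPM in wildtype mice (SD, n = 3 and 2). Without null mouse 9210 the log2 fold change of *Ccnd1* was 0.89 and its adjusted p 0.202, in a fit where no gene of the 13874 passed the FDR. Without wildtype mouse 9055 the log2 fold change was 1.03 and without 9056 it was 0.78. Each of these fits keeps only the other wildtype mouse, so that no p-value is given for them.

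Of the other cyclins of this class, *Ccnd3*, cyclin D3, read 114, 116 and 114 CPM in null and 86.5 and 99.7 CPM in wildtype mice. The groups did not overlap, but the difference was small, at a log2 fold change of 0.30 (SE 0.095, adjusted p = 0.131). *Ccnd2* and *Ccne1* were also above both wildtype mice in every null mouse, with log2 fold changes of 0.76 and 0.95, and neither passed the test (adjusted p of 0.174 and 0.177). *Ccnd2* had its highest level in mouse 9121. *Ccne2*, one of the cyclins E of the step into S phase, overlapped between groups at 10 to 27 counts a mouse.

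The CDK inhibitors were not lower beside these cyclins. *Cdkn1c*, which encodes p57 and is expressed by podocytes in the adult kidney, read 29.6, 33.5 and 35.2 CPM in null and 19.1 and 18.9 CPM in wildtype mice. Every null mouse was above both wildtype mice, and the mean rose from 19.0 ± 0.0995 (SD, n = 2) to 32.7 ± 2.84 CPM (SD, n = 3), a log2 fold change of 0.79 (SE 0.11, adjusted p = 0.0496). The call stands at the edge of the threshold: the adjusted p was 0.0505 without mouse 9121. Without 9210 it was 0.202, the same value as for *Ccnd1*, in the fit where no gene of the 13874 passed the FDR. No p-value is given for the fits without 9055 or 9056, which keep only the other wildtype mouse. All 6 podocyte markers were likewise higher in every null mouse, with a median log2 fold change of 0.85 and 4 of the 6 past the FDR. *Cdkn1c* has the order of mice of their sum, with 8637 lowest and 9210 highest of the null mice. That order of null mice is not particular to podocytes. The sums of collecting duct, intercalated, distal convoluted tubule and injured tubule markers had it too. Whether podocyte RNA carries the *Cdkn1c* difference was not tested. In the annotation 30.7% of the exon bases of *Cdkn1c* overlap an antisense gene, *Gm44732*, which was not analysed here.

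*Cdkn1a*, which encodes p21, a target of p53 that stops the cycle and is known from injured tubules, read 13.4, 10.3 and 13.0 CPM in null and 6.15 and 6.0 CPM in wildtype mice. Both groups were narrow and did not overlap, and the log2 fold change of 1.01 (SE 0.18) missed the threshold (adjusted p = 0.0637). It passed without mouse 9121 (1.12, adjusted p = 0.0346) and without mouse 8637 (0.94, adjusted p = 0.0234). Without 9210, where no gene of the 13874 passed the FDR, the adjusted p of *Cdkn1a* was 0.242. The fits without 9055 or 9056 keep only the other wildtype mouse, and no p-value is given for them. *Cdkn1b*, which encodes p27, the inhibitor of resting cells, read 37.9, 38.0 and 40.6 CPM in null and 39.1 and 33.4 CPM in wildtype mice, so that the groups overlapped (log2 fold change 0.10, SE 0.11, adjusted p = 0.578).

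**Figure D2:**
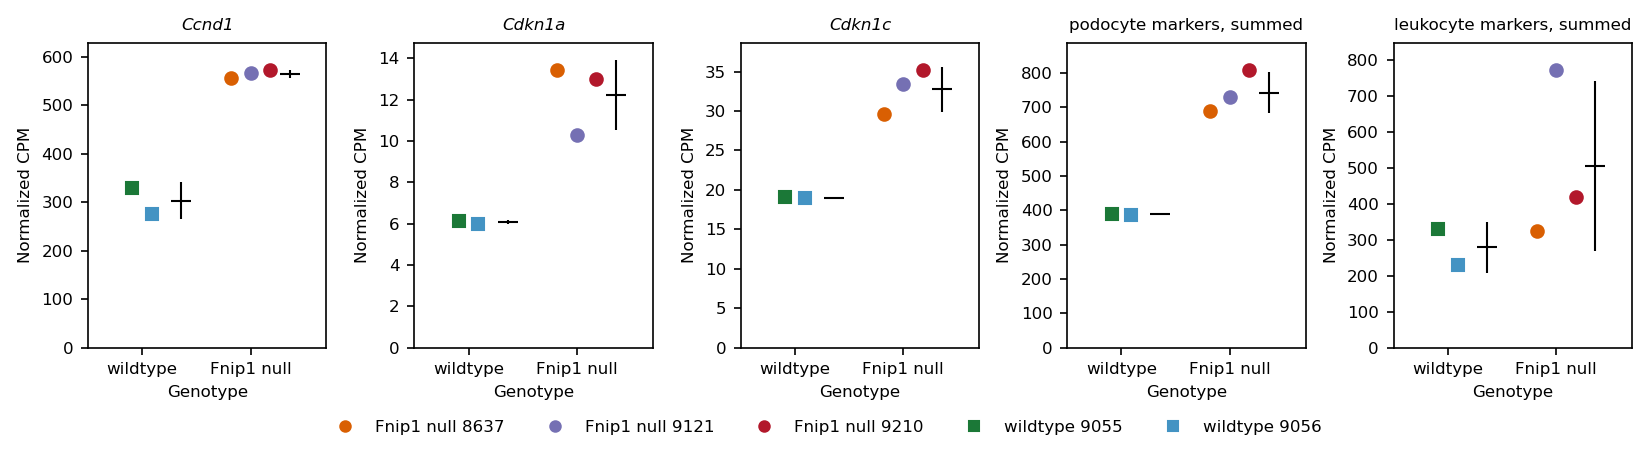
Normalized CPM of *Ccnd1*, *Cdkn1a* and *Cdkn1c* and the summed CPM of 6 podocyte and 11 leukocyte markers in each mouse, with the mean ± SD of each genotype beside the points. The genes and the podocyte sum separate the genotypes, while the leukocyte sum, mostly *Cd74*, is highest in null mouse 9121 (773 CPM) and overlaps between genotypes, although 8 of its 11 markers do not.

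Among the genes that license origins and unwind DNA, the differences ran from 0.10 to 1.44 on the log2 scale, and none passed the FDR in the quasi-likelihood test. *Mcm2* to *Mcm7* are subunits of the replicative helicase, and *Cdc6* and *Cdt1* load it. *Mcm3* read 7.66, 7.55 and 11.4 CPM in null and 5.03 and 2.97 CPM in wildtype mice (log2 fold change 1.15, SE 0.31, adjusted p = 0.108). *Mcm5* read 13.1, 8.13 and 13.5 CPM against 7.20 and 4.63 CPM (0.97, SE 0.30, adjusted p = 0.13). The null mice differed among themselves in both genes, but no null value was as low as a wildtype value. *Mcm6*, the most abundant of this class, read 31.5, 24.4 and 32.9 CPM in null and 25.9 and 26.2 CPM in wildtype mice, so that null mouse 9121 lay below both wildtype mice (0.18, SE 0.15, adjusted p = 0.47). All 8 genes of the class had a positive log2 fold change, with a median of 0.51. In 4 of 8 the null mice were all above the wildtype mice, where the same held for 22.9% of all genes.

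Of the replication clamp and the enzymes of nucleotide supply, *Pcna*, the sliding clamp of DNA polymerases, read 54.6, 49.3 and 56.6 CPM in null and 42.8 and 40.6 CPM in wildtype mice. The groups did not overlap, and the log2 fold change was 0.36 (SE 0.099, adjusted p = 0.11). *Rrm2*, the S phase subunit of ribonucleotide reductase, read 11.3, 9.34 and 17.8 CPM against 6.02 and 6.23 CPM (1.06, SE 0.30, adjusted p = 0.111). *Rrm1*, the other subunit, was above both wildtype mice in every null mouse (0.46, SE 0.18), and *Tyms*, thymidylate synthase, overlapped (0.10, SE 0.14). Over the 12 genes of S phase, 7 had all null mice above both wildtype mice, where the same held for 22.9% of all genes. The median log2 fold change of the 12 was 0.44.

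The transcription factors of both waves overlapped between genotypes. *E2f1* read 6.6, 3.96 and 7.49 CPM in null and 4.53 and 4.57 CPM in wildtype mice, with mice 8637 and 9210 above and 9121 below the wildtype pair (log2 fold change 0.40, SE 0.30, adjusted p = 0.442). In *Foxm1* 9121 was also the lowest null mouse, and 8637 the highest, with a log2 fold change of 0.45 (SE 0.35, adjusted p = 0.451).

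**Figure D3:**
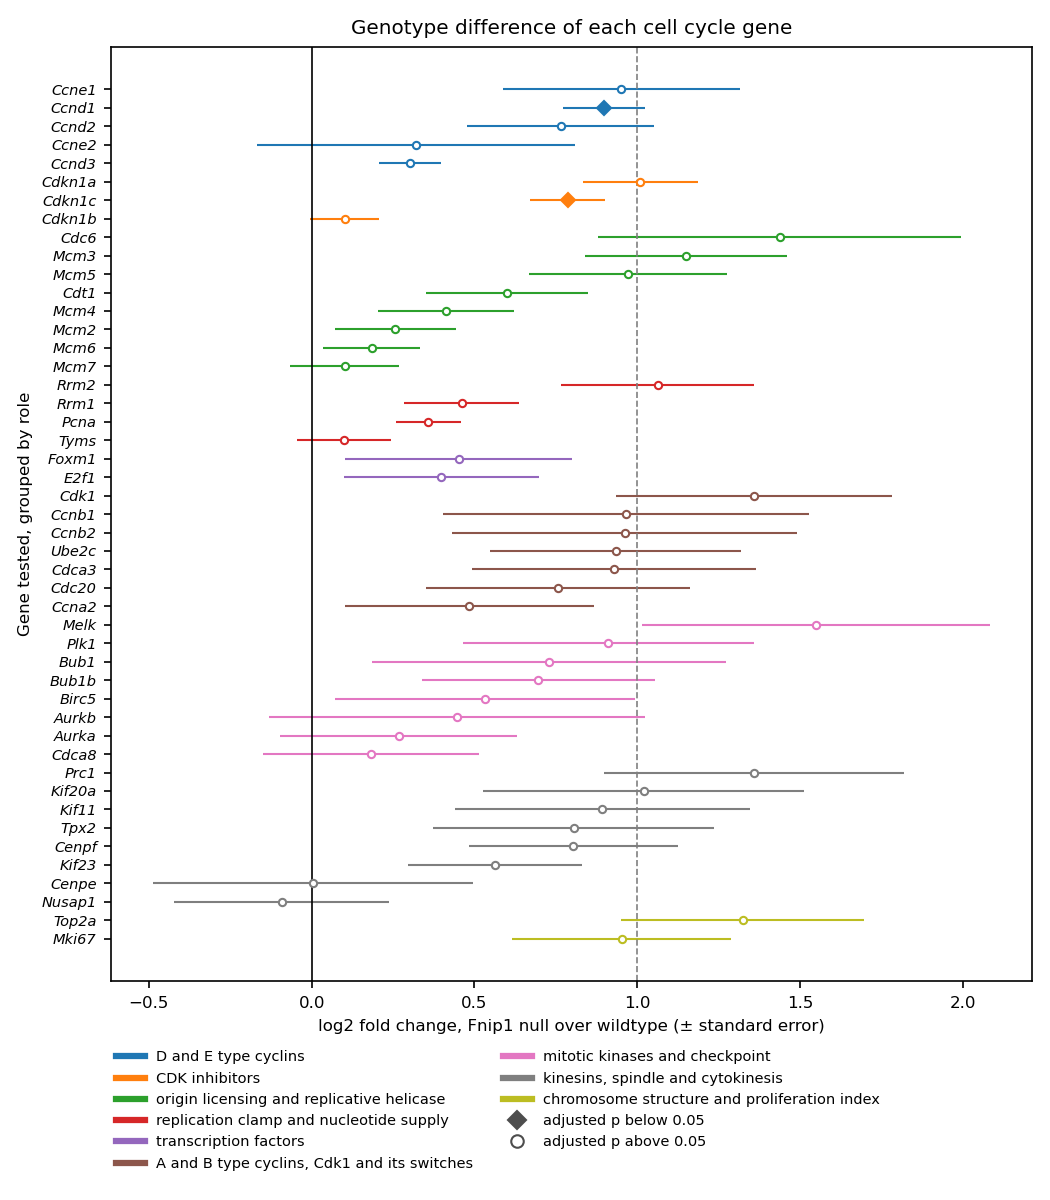
Log2 fold change of *Fnip1* null over wildtype kidney with its standard error for the 47 genes tested, grouped and coloured by role, with filled diamonds for an adjusted p below 0.05 and a dashed line at 2-fold. Only *Ccnd1* and *Cdkn1c* are filled, and *Nusap1* is the gene left of 0, a sign that turned (0.058) with scaling by library size alone.

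The genes of mitosis had a median log2 fold change of 0.80 over the 25 tested, and the null mice differed widely among themselves. Of the 25, 24 were positive, 7 were higher at an unadjusted p below 0.05, none passed the FDR in the quasi-likelihood test and 2 did by the exact test or DESeq2, where 6.16% and 6.18% of all genes were higher at that FDR. In 9 of the 25 all null mice were above both wildtype mice, against the 22.9% of all genes. *Cdk1*, the kinase that starts mitosis, read 3.47, 2.80 and 5.11 CPM in null and 1.99 and 0.972 CPM in wildtype mice. Its counts were 59, 53 and 86 against 32 and 17, and the log2 fold change was 1.36 (SE 0.42, adjusted p = 0.13). *Cdca3*, a factor of the entry into mitosis, read 4.89, 2.95 and 7.25 CPM against 1.99 and 3.26 CPM, so that mouse 9121 lay between the wildtype mice (0.93, SE 0.44, adjusted p = 0.242). *Ccnb1* and *Ccnb2*, the cyclins B that bind *Cdk1*, had log2 fold changes of 0.97 and 0.96 but overlapped between groups, with adjusted p of 0.327 and 0.305. *Ccna2* and *Cdc20* overlapped too, at log2 fold changes of 0.48 and 0.76 (adjusted p of 0.459 and 0.292). *Ube2c*, which with *Cdc20* drives the destruction of the cyclins, did not overlap (0.93, SE 0.38, adjusted p = 0.198). *Cdc25c*, the phosphatase that activates *Cdk1*, had 4 to 8 counts in each mouse and was not tested.

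Among the kinases and checkpoint genes, *Bub1b*, a sensor of unattached chromosomes, read 2.89, 2.59 and 4.87 CPM in null and 2.36 and 1.89 CPM in wildtype mice, without overlap (log2 fold change 0.70, SE 0.36, adjusted p = 0.275). *Melk*, a mitotic kinase, had the largest log2 fold change of the 47 genes (1.55, SE 0.54, adjusted p = 0.151), on 13, 13 and 25 counts in null and 6 and 5 in wildtype mice. It is named for that size, which was seen first. *Plk1*, *Bub1*, *Birc5* and the aurora kinases *Aurka* and *Aurkb*, which build the spindle and hold chromosomes to it, all overlapped between groups, with log2 fold changes of 0.91, 0.73, 0.53, 0.27 and 0.45. In *Aurkb*, null mouse 9121 had 12 counts against 17 and 22 in the wildtype mice. *Cdca8* overlapped too, with the smallest log2 fold change of this class (0.18, SE 0.33, adjusted p = 0.762).

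Among the motors and spindle proteins, *Nusap1*, which binds spindle microtubules and was the most abundant of them in reads, read 6.24, 3.11 and 6.06 CPM in null and 5.96 and 4.97 CPM in wildtype mice. The 2 null mice 8637 and 9210 were just above the wildtype mice and 9121 was below both, for a log2 fold change of -0.09 (SE 0.33, adjusted p = 0.884) that turned to 0.17 without 9121. *Prc1*, which bundles microtubules for cytokinesis, did not overlap (1.36, SE 0.46, adjusted p = 0.147), nor did *Kif23* and *Cenpf* (0.56 and 0.80). *Kif11*, *Kif20a* and *Tpx2*, named after their values were seen, overlapped at log2 fold changes of 0.89, 1.02 and 0.80, since mouse 9121 did not exceed the higher wildtype mouse. *Cenpe* overlapped as well and had nearly the same fitted level in both genotypes (0.0041, SE 0.49, adjusted p = 0.997).

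*Mki67*, the proliferation antigen Ki-67, read 11.4, 7.81 and 16.2 CPM in null and 7.14 and 5.03 CPM in wildtype mice. No null value was as low as a wildtype value, but 9121 was near the higher one, and the null mice differed among themselves by more than the gap between the groups (log2 fold change 0.95, SE 0.34, adjusted p = 0.159). *Top2a*, the topoisomerase that untangles chromosomes, read 8.72, 5.80 and 12.5 CPM against 4.28 and 2.92 CPM, with the same order of null mice (1.32, SE 0.37, adjusted p = 0.112).

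The order of the null mice was nearly the same from gene to gene in mitosis. Mouse 9210 was the highest null mouse in 24 of the 25 genes and 9121 the lowest in 23. Mouse 9210 was above both wildtype mice in 25, 8637 in 23 and 9121 in 9 of the 25. The summed level of the 25 genes was 88.5, 59.6 and 129 CPM in null and 57.3 and 52.0 CPM in wildtype mice, on 1502, 1130 and 2170 counts against 923 and 910. The median log2 ratio to the wildtype mean, on CPM plus 0.5, was 0.57, 0.097 and 1.1. In the genes of S phase the same ratio was 0.41, 0.24 and 0.55, and the null mice were above both wildtype mice in 11, 8 and 11 of 12. The D and E cyclins had another order, at 0.45, 0.81 and 0.61, and mouse 9121 was the highest null mouse in 3 of 5. The genes of mitosis share RNA from the same mice, so that their agreement in order is that of 3 mice and not of 25 measurements.

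**Figure D4:**
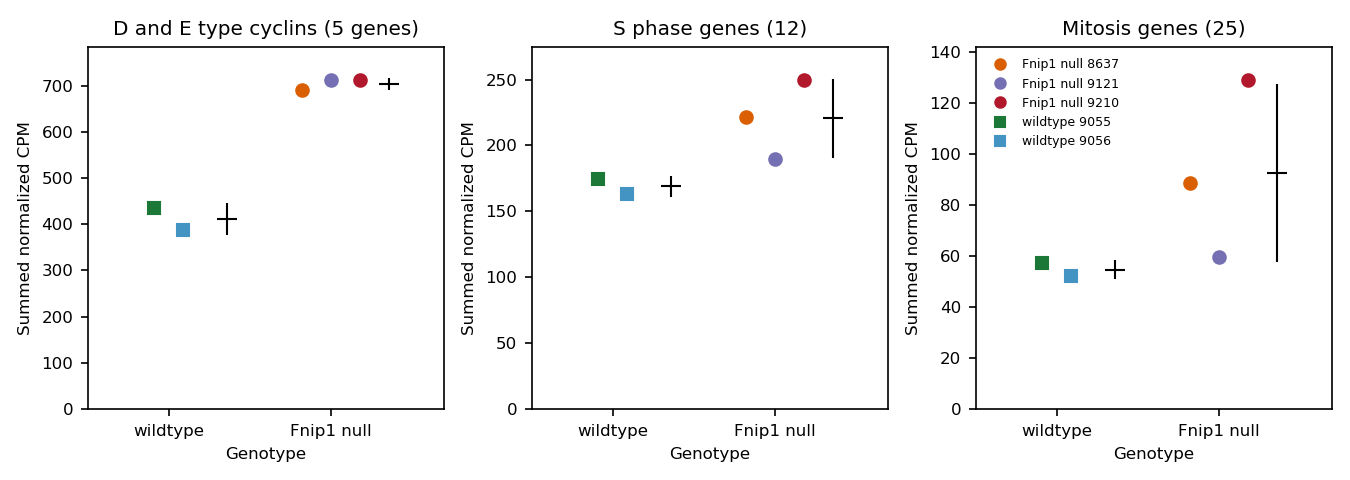
Summed normalized CPM of the D and E type cyclins, the S phase genes and the mitosis genes in each mouse, with the mean ± SD of each genotype beside the points. The cyclins separate the genotypes with null mice close together, while the mitosis sum runs from 59.6 CPM in mouse 9121 to 129 CPM in mouse 9210.

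**Figure D5:**
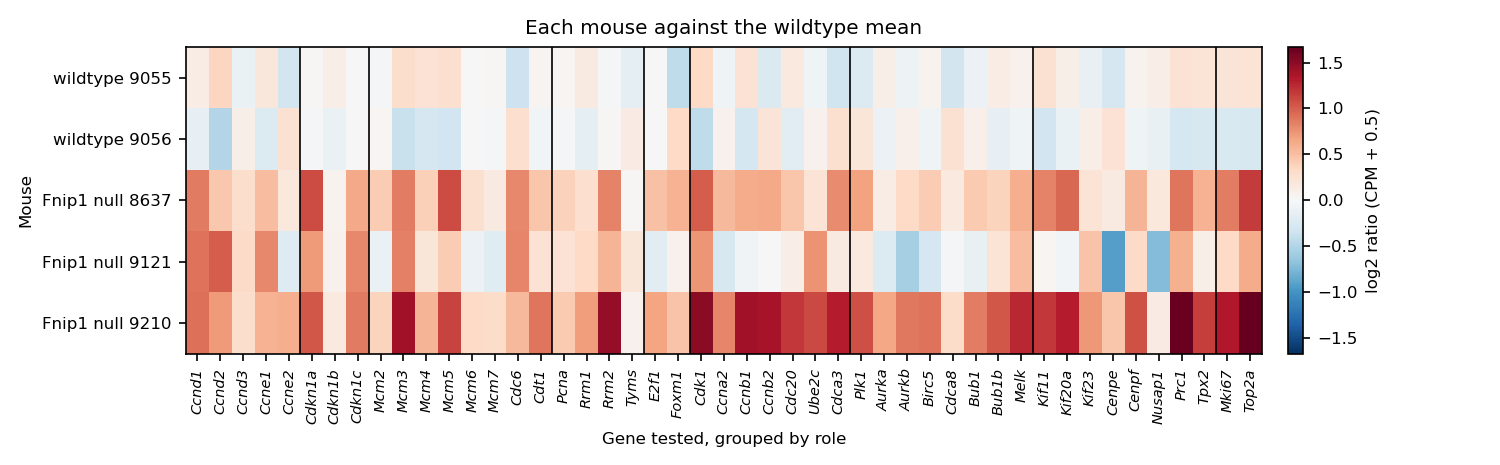
Log2 ratio of each mouse to the mean of the 2 wildtype mice, on CPM plus 0.5, for the 47 genes tested, grouped by role. Mouse 9210 is darkest across the mitosis genes, and mouse 9121 is near the wildtype level there, with *Cenpe*, *Nusap1* and *Aurkb* among the genes below it.

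Without mouse 9121, 47 of the 47 genes had a higher fitted level in null kidney, and in 42 of 47 both remaining null mice were above both wildtype mice, where the same held for 26.5% of all genes, a count added after the data were seen. The same count was 22 of 47 without mouse 8637 (34.2% of all genes) and 22 of 47 without 9210 (25.2%). Without 9121 the log2 fold change of *Ccnd1* was 0.90 (adjusted p = 0.0421) and that of *Ccnd3* was 0.29. Of the S phase genes, *Mcm3*, *Mcm5*, *Mcm6*, *Pcna* and *Rrm2* had log2 fold changes of 1.26, 1.18, 0.31, 0.41 and 1.25, and *E2f1* had 0.63. Of the mitosis genes, *Cdk1*, *Cdca3*, *Bub1b*, *Mki67* and *Top2a* had 1.54, 1.20, 0.87, 1.18 and 1.56. None of these but *Ccnd1* passed the FDR, with adjusted p of 0.0544 in *Top2a* and higher in the others. The median of the mitosis genes was then 1.06 and that of the S phase genes 0.51. Without mouse 9210 they were 0.44 and 0.32, 41 of the 47 genes were still positive, and no gene of the 13874 was called. Among the null mice the leukocyte marker sum was highest in mouse 9121, at 773 CPM, where the mitosis genes were lowest. The sum over injured tubule markers, mostly *Spp1*, was lowest of the null mice in 8637, at 1931 CPM, and the collecting duct sum was highest in 9210, at 979 CPM. Of the injured tubule genes, *Spp1*, *Vcam1* and *Sox9* were lowest of the null mice in 8637, and *Havcr1*, *Lcn2* and *Krt20* in 9121. *Havcr1* read 11.1, 0.475 and 3.86 CPM in null and 1.99 and 1.43 CPM in wildtype mice. The part of these markers, or of the sex of mouse 9121, in the order of the mice was not tested.

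A further 137 cell cycle genes outside the 48 were listed, 129 of them tested, to see how the rest of the pathway read. The fitted level was higher in null kidney for 87 and lower for 42 of them (108 and 21 with scaling by library size alone). The median log2 fold change was 0.22. At an unadjusted p below 0.05, 1933 (13.9%) of all 13874 genes were higher and 1548 lower, and of the 129, 28 were higher and 4 lower. None passed the FDR in the quasi-likelihood test, and 6 were higher and 1 lower by edgeR's exact test and 1 of each by DESeq2, shares at or below those of all genes with the same tools (6.16% and 6.18% higher). In 3179 (22.9%) of all 13874 genes the null mice were all above and in 3186 all below the wildtype mice. Of the 129, 48 were all above and 17 all below. Without mouse 9121, 90 were higher and 39 lower, with a median of 0.25. The 5 with the smallest p were *Kif15*, *E2f5*, *Uhrf1*, *Clspn* and *Cep55*. *Kif15*, a mitotic kinesin, read 1.0, 0.739 and 0.832 CPM against 0.0621 and 0.114 CPM, on 45 counts in the null mice and 3 in the wildtype mice together (adjusted p = 0.0631). The ratio of these summed counts at equal depth was 9.55 (exact 95% Poisson interval 3.07 to 48.1, which covers counting error only). *Uhrf1*, which carries DNA methylation through replication, read 8.95, 5.65 and 9.15 CPM against 3.29 and 1.6 CPM (1.7, adjusted p = 0.0841). *Clspn*, a checkpoint protein of the fork, and *Cep55*, which acts in the final cut between daughter cells, had log2 fold changes of 1.86 and 1.67 (adjusted p of 0.0885 and 0.0993). *E2f5*, a repressive E2F factor, was lower in every null mouse, at 24.1, 22.1 and 21.7 CPM against 30.9 and 31.7 CPM (-0.47, SE 0.10, adjusted p = 0.0786).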

How the data were processed

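The values used are the RNAseq gene counts of 5 kidneys that the authors deposited, without normalization. They were made from reads aligned to mm10 with TopHat 2.1.0 and counted with HTSeq 0.6.1. The strand setting of the counting is not given in the sources used here, so reads of overlapping genes on opposite strands cannot be told apart. Beside *Ccnd1* and *Cdkn1c*, this concerns 29.3% of the exon bases of *Kif20a* (with *Cdc23*) and 22.8% of *Ube2c* (*Tnnc2*). It also concerns 17.4% of *Ccne2* (*Ints8*), 12.5% of *Ccna2* (*Exosc9*) and 11.1% of *Prc1* (*Rccd1*). In null and wildtype mice *Cdc23* read 31.7 and 28.8 CPM, *Ints8* 27.8 and 30.3 CPM, and *Tnnc2* 0.0594 and 0.0310 CPM. HTSeq's summary lines were left out of the depth. They held 28.3 to 31.4% of all records as not unique, 9.91 to 10.8% as in no gene and 0.741 to 0.803% as ambiguous. In R 4.3.3 with edgeR 4.0.16 and limma 3.58.1, a gene was dropped when 3 or more mice had below 10 counts of it, TMM scaled the libraries, and the quasi-likelihood test compared genotypes, with p adjusted by Benjamini-Hochberg across all 13874 remaining genes. A call needs an FDR of 5% and at least 2-fold. Standard errors (SE) are the fold change on the log2 scale divided by the root of its F statistic. The script was tested on simulated counts. Alternatives were library size scaling, RLE, edgeR's exact test, DESeq2 1.42.0, other filters and leaving out each mouse. P-values measure the spread between these mice only. Values in each mouse are given for genes past the FDR, the 10 with the smallest p, the most abundant of each role and *Mki67*, *Top2a*, *Cdk1*, *Ccnd1*, *Pcna* and *Cdkn1a*. Of the 137 further genes the 5 with the smallest p are named. The members and lists were chosen with earlier results of these data known. Genes were matched to GENCODE M21 and RefSeq by symbol.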

Additional observations from a re-analysis of the deposited data

How the results depend on the processing

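The 13874 genes gave 74 calls (56 higher and 18 lower in null kidney, or 67 and 10 with library size scaling), and 565 by edgeR's exact test, 487 by DESeq2, 145 with no filter on low counts and 0 to 901 with each mouse left out in turn. The number of cell cycle genes called was 0, and 1 with library size scaling, 5 by the exact test and by DESeq2, 2 without the fold limit and 0 to 2 with each mouse left out. The number past the FDR alone was 2, and 1 with library size scaling or RLE, 8 by the exact test and by DESeq2, and 0 to 5 with each mouse left out. The 8 were *Ccnd1*, *Cdk1*, *Cdkn1a*, *Cdkn1c*, *Mcm3*, *Mcm5*, *Rrm2* and *Top2a* with both tools, where 6.16 and 6.18% of all genes were higher at the same FDR. Without mouse 8637 the 5 were *Ccnd1*, *Cdkn1a*, *Cdkn1c*, *Mcm3* and *Ube2c*, and without mouse 9210, 9055 or 9056 no gene passed. The median log2 fold change of the genes tested was 0.41 to 0.86 with each mouse left out, lowest without 9210. Library size scaling moved the median of all genes to 0.17, and all changes under it read relative to that. Signs turned for *Nusap1* with library size scaling (0.058) and for *Cenpe* with no filter (-0.0063). With each mouse left out, the log2 fold change ran from -0.042 to 0.83 in *Ccne2*, -0.0069 to 0.22 in *Cdkn1b*, -0.014 to 0.24 in *Mcm7*, -0.045 to 0.26 in *Tyms*, -0.052 to 0.48 in *Aurka*, -0.070 to 0.83 in *Aurkb*, -0.13 to 0.60 in *Cdca8*, -0.34 to 0.36 in *Cenpe* and -0.25 to 0.17 in *Nusap1*. The causes of these changes were not tested. With 2 wildtype mice, leaving out either assumes that the other varies as the null mice do. No paired analysis was possible because the groups share no mouse number. At counts below about 10 in a mouse, as in *Cdc25c*, *Cdc6* and *Melk*, depth limits what could be seen.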
